A study of Mus musculus with 16 samples.

Results

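The genes of the proteasome were examined at their promoters by ATAC-seq, an assay in which the Tn5 transposase cuts and tags open chromatin, in activated mouse B cells. Of the 21938 protein-coding genes that the GENCODE annotation of GRCm38 (mm10) places on chromosomes 1 to 19, X and Y, 45 have a symbol made of Psma, Psmb, Psmc, Psmd, Psme, Psmf or Psmg and a number. The inducible subunits Psmb8, Psmb9 and Psmb10 were left out by the same rule. The symbol alone decided which genes belong, although the set was chosen with earlier results of these data known. A gene counted as having a promoter peak in a library when a listed peak overlapped, by at least 1 bp, a window that began 1000 bp before any of its annotated start sites and ended 100 bp past it.

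The study asked what the chromatin remodeler Brg1, encoded by *Smarca4*, does in mature B cells. The 4 control libraries came from mice with CD23-Cre and 1 floxed allele (Brg1 fl/+), which therefore delete that allele in mature B cells and keep the other. The 4 Brg1-deficient libraries came from mice with CD23-Cre and both alleles floxed (Brg1 fl/fl). Both groups carry the Cre transgene on the C57BL/6 strain, Cre is driven by the CD23 promoter, which acts in mature B cells, and how many mice gave the libraries is not stated. B cells had been enriched from spleen with CD43 (Ly-48) beads and stimulated with IL-4 (20 ng/mL) plus LPS (10 µg/mL), and 50000 cells went into each library. The sample labels give 72 hours of stimulation and the description of the series gives 96 hours. The animals were young adults, and nothing in the labels ties a library to one animal, so that the p-values below measure the spread between libraries, which may be technical.

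The proteasome is the large protease that breaks down proteins marked with ubiquitin. Its 20S core is a barrel of outer rings of alpha subunits, which gate the entry pore, and inner rings of beta subunits, some of which carry the cutting sites. The 19S particle caps the barrel, recognises ubiquitin chains, removes them and unfolds the substrate with a ring of ATPases. Other proteins open or block the core, and dedicated chaperones put the rings together. B cells that become antibody-secreting cells place a heavy load on protein quality control, and proteasome inhibitors are used against plasma cell tumours. The transcription factor encoded by *Nfe2l1*, which binds antioxidant response elements, is known to raise the transcription of proteasome genes as a group when the protease is impaired.

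The 8 lists held 6250 to 14573 peaks on the chromosomes used, so that the chance of listing a weak promoter differed between libraries. Absence of a promoter from a list means that it was not detectable there at the depth of that library, and does not show that it was closed. For each peak, the number of fragments at the summit was recovered from the deposited fold and p-value. Promoter regions listed in all 8 libraries gave a library factor (0.561 to 1.93). It was set so that the median log2 ratio of a region to its own mean over libraries was equal in each library. The number of fragments was divided by this factor. These values are called scaled heights below and are in fragments. A height cannot tell fewer cells with an open promoter from less opening per cell. The *Smarca4* promoter was listed in all 8 libraries, which does not check the genotype because the deletion need not include the promoter. Of the B cell markers, *Pax5* and *Ms4a1* had a promoter peak in all 8 libraries, *Cd79a* in 1 and *Cd79b* and *Cd22* in none. All 12 markers of T cells, myeloid cells, NK cells and erythroid cells had a promoter peak in 0 libraries.

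Most proteasome genes had an accessible promoter in these B cells. In Brg1 fl/+ libraries 1, 2, 3 and 4, 43, 40, 26 and 27 of the 45 genes had a promoter peak. In Brg1 fl/fl libraries 1, 2, 3 and 4, the numbers were 34, 24, 33 and 34. Both genotypes thus had a library with few members listed, and the ranges overlapped. Expressed as shares, 53.3% to 95.6% of the proteasome genes were listed, beside 26.8% to 46.8% of all protein-coding genes in the same libraries. When each list was trimmed to the same number of its best peaks, 28, 28, 26 and 24 members were listed in Brg1 fl/+ and 29, 24, 27 and 28 in Brg1 fl/fl, so that the longest lists no longer stood out.

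**Figure D1:**
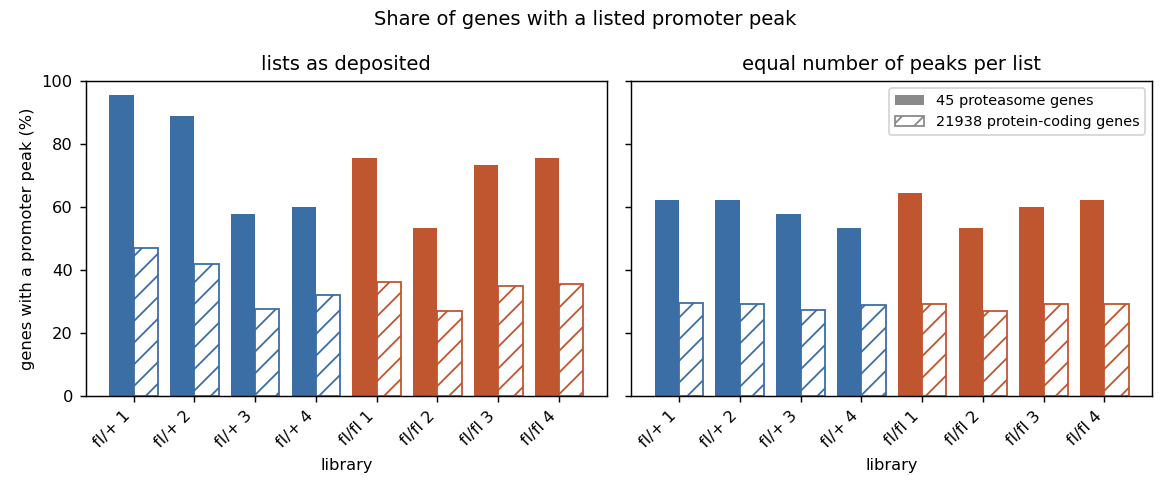
Share of genes with a listed promoter peak in each library (y axis, percent; x axis, library), for the lists as deposited (left) and for lists of equal length (right). Filled bars are the 45 proteasome genes and hatched bars the 21938 protein-coding genes; as deposited, members range from 53.3% to 95.6%, and the spread narrows with equal lists in both genotypes.

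Listing differed widely between genes. 20 members (44.4%) had a promoter peak in all 8 libraries, beside 22.0% of all protein-coding genes, 23 had one in some libraries and 2 in none. Of the protein-coding genes, 52.2% had a peak in no library. Among genes with a peak in any library, 20 of 43 members and 4825 of 10476 protein-coding genes were listed in all 8. The 2 genes without a peak were *Psma8* and *Psmb11*, the alpha and beta subunits known from testis and thymus. Where a promoter was listed in every library, the mean scaled height lay between 21.2 and 53.1, whereas for members listed in some libraries it lay between 6.21 and 30.2. The lowest scaled height listed anywhere in a library was between 3.62 and 10.7, so several of the partly listed promoters sat close to what a list could show.

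**Figure D2:**
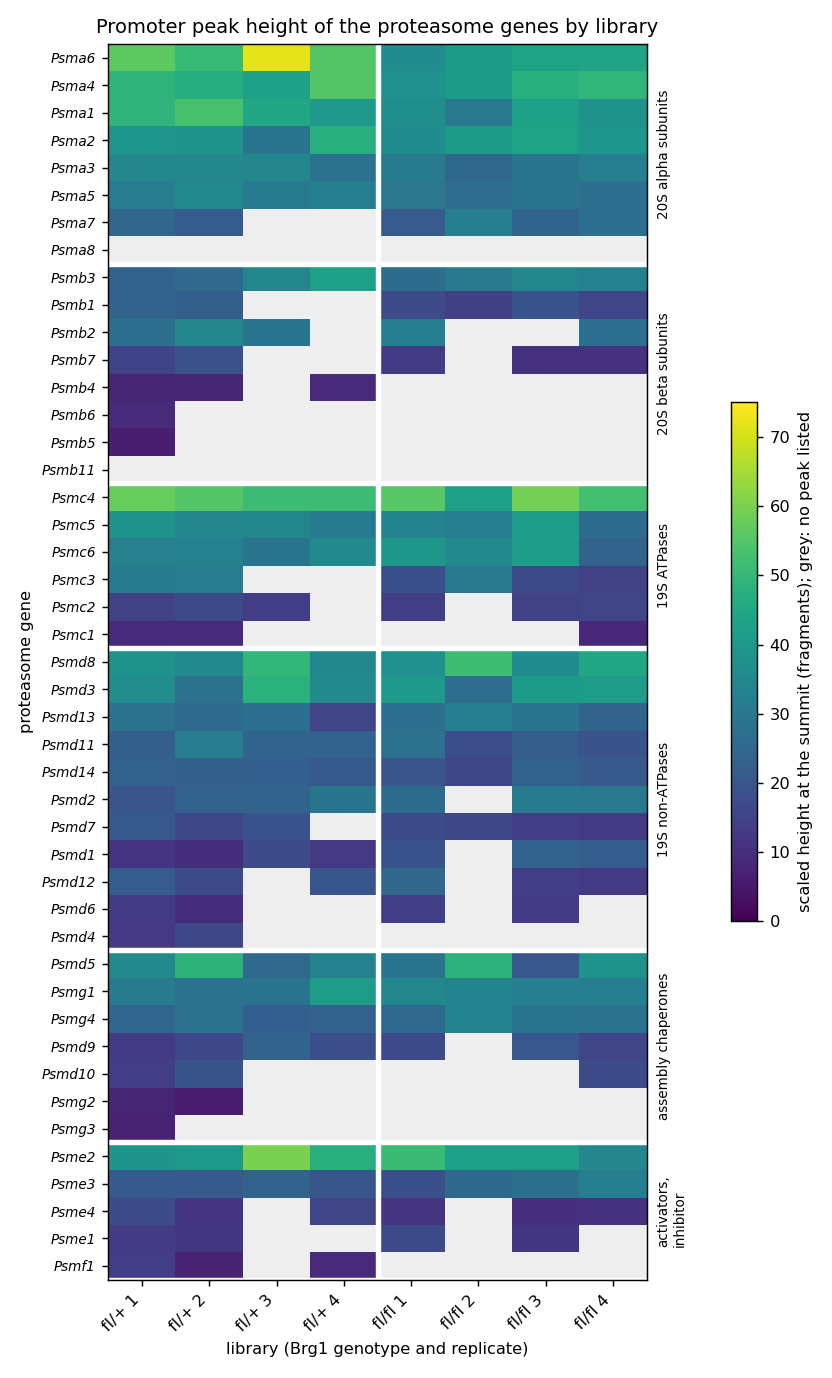
Scaled height at the summit of the promoter peak (color, fragments) for each of the 45 proteasome genes (rows, grouped by role) in each library (columns); grey marks a library without a listed peak. The alpha subunit rows are mostly filled, whereas *Psmb4*, *Psmb5* and *Psmb6* are filled in 3, 1 and 1 libraries, all of them Brg1 fl/+.

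A comparison between genotypes asked whether the promoters were listed more often in controls. 13 members had a peak in more Brg1 fl/+ than Brg1 fl/fl libraries, 5 had the reverse and 25 had equal numbers. Among all protein-coding genes, of which 52.2% had a peak in no library, 15.5% were listed in more Brg1 fl/+ libraries and 5.48% in more Brg1 fl/fl libraries. Of genes with a peak in any library, 13 of 43 members and 3392 of 10476 protein-coding genes were listed in more Brg1 fl/+ libraries. For more Brg1 fl/fl libraries the counts were 5 of 43 and 1203 of 10476. With lists of equal length the members split into 5 and 6 (11.1% and 13.3%), beside 6.90% and 6.99% of protein-coding genes, so the imbalance moved with list length for both. In those lists 26.7% of the members and 63.5% of protein-coding genes had no promoter peak, so these shares are not over the same base. No member had a peak in all 4 libraries of one genotype and none of the other, a pattern met by 0.0501% of protein-coding genes in the direction of Brg1 fl/+ and by 0.00912% in the direction of Brg1 fl/fl.

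The heights were then compared. Over 4560 combined regions with a height in all 8 libraries, limma with a mean-variance trend and Benjamini-Hochberg adjustment called 4.74% of the regions lower and 7.15% higher in Brg1 fl/fl at an adjusted p below 0.05. Of the 20 proteasome promoters in this fit, 1 was lower and 0 were higher. 2 of them (10%) had an unadjusted p below 0.05, beside 25.9% of all regions. The median log2 difference, Brg1 fl/fl minus Brg1 fl/+, was -0.05 over the 20 promoters, with 11 negative and 9 positive, beside 0.01 over the regions of all protein-coding genes. The standard errors were 0.13 to 0.20 on the log2 scale, and the 95% intervals of the 19 promoters not called reached from -0.63 to 0.64. Differences within these bounds could not be resolved, and the missing calls do not show that the promoters were equal. Where each library was instead scaled by its background level, the median of all 4560 regions moved to -0.81. All 20 members were then called lower, as were 91.0% of all regions. On the deposited fold over the local background the median of all regions moved to -0.17. Relative to the median of all regions, the median of the members was -0.07 under the main scaling and -0.07 on the deposited fold. Background scaling moves all regions by the same amount, so a value relative to that median is the same there by construction. The positive differences of *Psmg4*, *Psmd13* and *Psme3* given below turned negative under background scaling and on the deposited fold, with the median of all regions. Relative to that median they stayed positive on the deposited fold, at 0.07, 0.04 and 0.09. Relative to the same median *Psma6* was at -0.51 under the main scaling, and smaller, at -0.32, on the deposited fold.

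**Figure D3:**
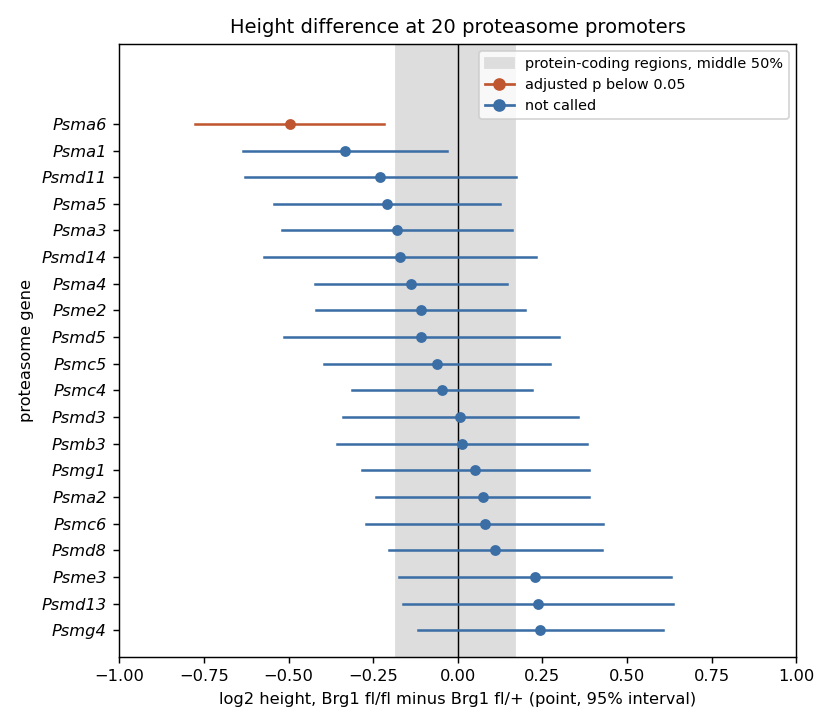
Difference in log2 scaled height, Brg1 fl/fl minus Brg1 fl/+ (x axis), for the 20 proteasome promoters listed in all 8 libraries (y axis), with 95% intervals; the grey band holds the middle 50% of the regions of protein-coding genes. *Psma6*, at -0.50, is the promoter called at an adjusted p below 0.05, and 18 of the 20 intervals cover 0.

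The alpha subunits were listed in a mean of 6.75 libraries per gene. 6 of 8 had a promoter peak in all libraries, 1 in some and 1 in none. Of the 6 in the fit, 5 had a negative difference, beside 49.3% of the regions of protein-coding genes. A trend of the group was not tested. The promoter that carried the call was that of *Psma6*, an alpha subunit of the gate ring, on chromosome 12. Its accessible region (chr12:55398534-55399057, plus strand, 524 bp) lies 14553 bp downstream of the most 5′ annotated start of the gene, at an internal start site, and no other gene starts in it. The scaled heights of *Psma6* were 56.4, 50.8, 72.0 and 54.8 in Brg1 fl/+ libraries 1, 2, 3 and 4. They were 36.4, 41.0, 43.6 and 43.9 in Brg1 fl/fl libraries 1, 2, 3 and 4. Every Brg1 fl/+ value lay above every Brg1 fl/fl value. The means were 58.5 ± 9.30 and 41.2 ± 3.48 (SD, n = 4 each), a log2 difference of -0.50 with a standard error of 0.14 and an adjusted p of 0.0153 (limma). With libraries 1 and 2 and libraries 3 and 4 of a genotype joined, as the names of the lists group them, the adjusted p was 0.0361. The call was lost without Brg1 fl/+ library 3, whose height was the highest (log2 difference -0.39, adjusted p 0.0725, limma), and without Brg1 fl/fl library 1, whose height was the lowest (log2 difference -0.44, adjusted p 0.0636, limma).

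To show the sequence behind the call, promoters are printed from GRCm38.p6 (mm10) from 250 bp upstream to 50 bp downstream of the start site used, 5′ to 3′ on the strand of the gene. Position 1 is the first transcribed base. Capitals mark matches, on either strand, to short motifs. The antioxidant response element core was searched as TGACNNNGC and the motif of ETS factors, which act at many promoters of genes that most cells use, as CCGGAAG. The box bound by the trimeric factor NF-Y was searched as CCAAT, and the GC box of the Sp1 family as GGGCGG. TGACGTCA stands for the CRE, the site of CREB proteins, and CACGTG for the E-box, the site of Myc and its relatives. The motif of the nuclear respiratory factor was GCGCATGC, that of YY1 was AAGATGGCG, and those of the E2F family were TTTCGCGC and TTTGGCGC. The TATA box, at which the general transcription machinery can assemble, was searched as TATAAA. Matches of different motifs may share bases. A match is a description of letters and does not show that a factor binds. *Psma6* is shown for its call and *Psma1*, the promoter with the next largest difference, for comparison. The *Psma6* window, at chr12:55398525-55398824 (plus strand), holds 1 ETS match, which starts at position -82, and no GC box. The *Psma1* window, at chr7:114276069-114276368 (minus strand), holds 2 NF-Y boxes and 2 GC boxes.
Psma6: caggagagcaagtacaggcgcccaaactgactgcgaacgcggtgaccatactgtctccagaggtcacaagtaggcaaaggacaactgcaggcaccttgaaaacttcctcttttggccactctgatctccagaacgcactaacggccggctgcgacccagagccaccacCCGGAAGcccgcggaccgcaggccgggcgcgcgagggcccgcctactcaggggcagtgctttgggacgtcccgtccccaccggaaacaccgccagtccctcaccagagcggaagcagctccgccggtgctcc
Psma1: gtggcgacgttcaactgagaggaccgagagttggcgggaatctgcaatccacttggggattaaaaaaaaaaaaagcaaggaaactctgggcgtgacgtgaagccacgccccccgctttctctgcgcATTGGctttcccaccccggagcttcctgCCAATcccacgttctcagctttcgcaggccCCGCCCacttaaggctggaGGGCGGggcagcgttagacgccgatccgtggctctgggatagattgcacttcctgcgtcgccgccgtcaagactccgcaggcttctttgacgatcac

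*Psma1* is another alpha subunit, and its accessible region covers chr7:114275827-114276624 around the start of the gene. The scaled heights were 48.7, 53.2, 44.6 and 40.3 in Brg1 fl/+ and 37.2, 30.3, 42.6 and 38.4 in Brg1 fl/fl. The groups overlapped, since Brg1 fl/fl library 3 exceeded Brg1 fl/+ library 4. The log2 difference was -0.33 ± 0.15 (SE) with an adjusted p of 0.146 (limma). *Psma5* had the smaller difference of -0.21 ± 0.17 (adjusted p 0.451, limma) with groups that did not overlap, at 31.6, 35.5, 30.9 and 32.4 in Brg1 fl/+ and 29.8, 26.7, 28.7 and 27.5 in Brg1 fl/fl. Among the 20 promoters, *Psma6* and *Psma5* were thus the 2 (10%) with all Brg1 fl/fl heights below all Brg1 fl/+ heights, and 0 had the reverse, beside 6.73% and 8.82% of the 4560 regions. The summit of *Psma5* lay 121 to 176 bp downstream of its start site in the 8 libraries, whereas the median of the 20 members lay upstream. *Psma3* (-0.18), *Psma4* (-0.14) and *Psma2* (0.07) were not called. The scaled heights of *Psma4* were 48.7, 46.7, 42.8 and 54.8 in Brg1 fl/+ and 38.0, 41.0, 47.3 and 49.4 in Brg1 fl/fl, with overlapping groups.

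**Figure D4:**
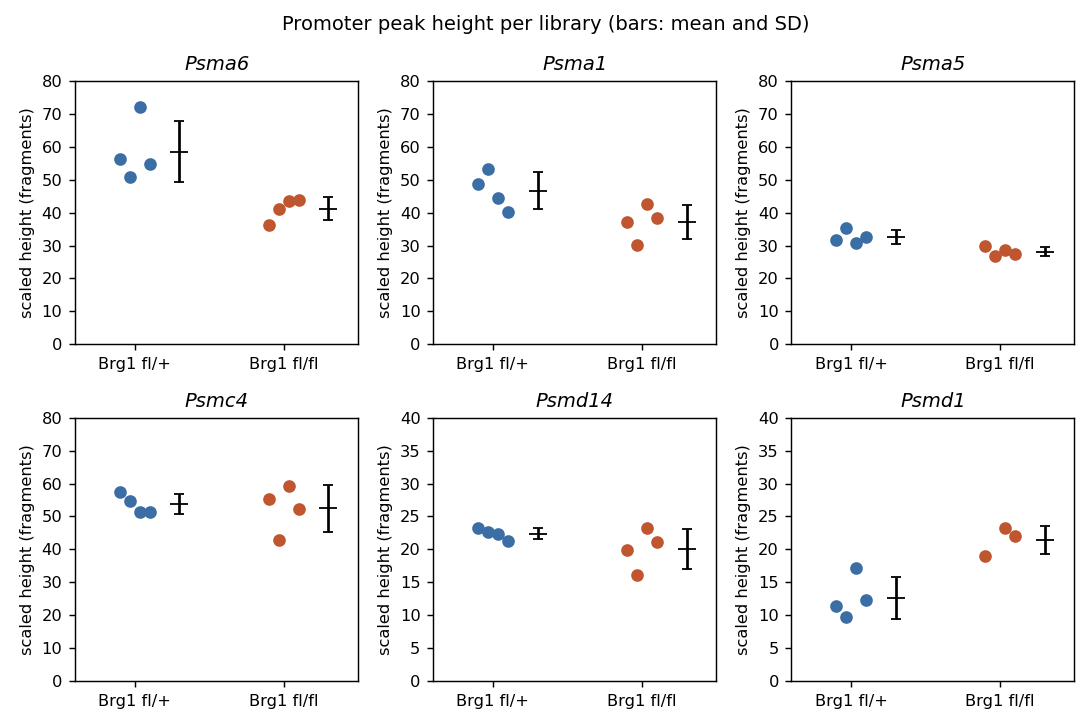
Scaled height per library (points; y axis, fragments) in Brg1 fl/+ and Brg1 fl/fl for 6 proteasome promoters, with the mean and SD beside them; the y axis ends at 80 in the first 4 panels and at 40 in the last 2. The genotypes do not overlap for *Psma6*, *Psma5* and *Psmd1*, for which Brg1 fl/fl library 2 had no peak, and overlap for the other 3.

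*Psma7*, the remaining alpha subunit, had no peak in Brg1 fl/+ libraries 3 and 4. Its scaled heights were 24.9 and 21.8 in Brg1 fl/+ libraries 1 and 2, and 21.5, 32.1, 24.1 and 27.5 in the Brg1 fl/fl libraries. The values overlapped where the promoter was listed. The uneven listing (2 against 4 libraries) had p = 0.429 (two-sided exact permutation test over the 70 ways to assign the libraries). This is the smallest p that a promoter listed in 6 libraries can reach, so the test could not call it. A p of 0.0286 needs a peak in all 4 libraries of a genotype and none of the other.

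The beta subunits were listed in a mean of 3.63 libraries per gene, the lowest mean of the 6 roles. 1 of 8, *Psmb3*, had a promoter peak in all libraries, 6 in some and 1 in none. The subunits with the cutting sites, *Psmb5* (chymotrypsin-like), *Psmb6* (caspase-like) and *Psmb7* (trypsin-like), had a peak in 1, 1 and 5 libraries. The single height of *Psmb5*, 6.21 in Brg1 fl/+ library 1, gave it the lowest mean height of the members with a peak, and that of *Psmb6* in the same library was 8.80. These libraries cannot say whether the weakly listed beta promoters differed between genotypes. *Psmb7* ranged from 11.0 to 18.5 where it was listed.

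*Psmb4*, a structural beta subunit, was listed in 3 Brg1 fl/+ libraries (scaled heights 7.77, 8.06 and 8.95 in libraries 1, 2 and 4) and in 0 Brg1 fl/fl libraries. The exact permutation test gave p = 0.143, the smallest it can give for a promoter listed in 3 libraries. The lowest scaled height listed in the Brg1 fl/fl libraries was 6.62, 10.7, 7.42 and 7.32, so a promoter of this height was near the edge of those lists. *Psmb1*, whose region also holds the start of *Tbp*, was listed in 2 Brg1 fl/+ libraries (23.8 and 22.6) and in all 4 Brg1 fl/fl libraries (17.4, 14.2, 19.5 and 15.6), with p = 0.429 for the listing (exact permutation test). Its heights did not overlap where it was listed, but 2 control libraries are missing from that comparison. *Psmb3* had a log2 difference of 0.01 ± 0.18.

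*Psmb2* stood apart, and was singled out after its values were seen. Its promoter reached 27.4, 34.7 and 29.1 in Brg1 fl/+ libraries 1, 2 and 3 and 32.2 and 27.5 in Brg1 fl/fl libraries 1 and 4, which is the level of many promoters listed everywhere. It was nevertheless not listed in Brg1 fl/+ library 4 or in Brg1 fl/fl libraries 2 and 3. Of 3480 regions at least as high and listed in 5 or more libraries, 34, 168 and 16 were missing from those 3 lists. Why the promoter was not listed there was not tested. The promoters of *Psmb2*, *Psmb5* and *Psmb6* each hold an antioxidant response element core that starts close to the start site, at positions -1, -20 and -19, and the 300 bp of *Psmb2* (chr4:126677380-126677679, plus strand) are shown because they also hold the CRE found among the members, which overlaps an NF-Y box on the opposite strand. The core itself is in capitals in the short lines for *Psmb5* and *Psmb6*, with its neighbours in lower case.
Psmb2: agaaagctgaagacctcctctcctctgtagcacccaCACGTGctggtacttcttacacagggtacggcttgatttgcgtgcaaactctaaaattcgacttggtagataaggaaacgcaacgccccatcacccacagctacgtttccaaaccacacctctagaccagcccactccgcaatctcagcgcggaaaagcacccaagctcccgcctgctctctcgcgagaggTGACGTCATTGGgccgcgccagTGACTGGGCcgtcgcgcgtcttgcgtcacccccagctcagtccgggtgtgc
Psmb5: aagttgTGACGTCGCggcgtt
Psmb6: agagagTGACGGAGCgcttta

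Among the ATPases of the 19S particle, which unfold substrates, 3 of 6 were listed in all libraries and none of these was called. *Psmc4* had the highest mean scaled height of all members (53.1), with 57.5, 54.8, 51.4 and 51.5 in Brg1 fl/+ and 55.4, 42.7, 59.3 and 52.2 in Brg1 fl/fl. The groups overlapped, the log2 difference was -0.05 ± 0.13 and its 95% interval was -0.31 to 0.22. Of the regions of protein-coding genes, 72.8% were at or below this height. *Psmc5* (-0.06) and *Psmc6* (0.08) were not called. The *Psmc4* sequence (chr7:28050052-28050351, minus strand) is printed as that of the highest member, and holds 2 GC boxes and no other match.
Psmc4: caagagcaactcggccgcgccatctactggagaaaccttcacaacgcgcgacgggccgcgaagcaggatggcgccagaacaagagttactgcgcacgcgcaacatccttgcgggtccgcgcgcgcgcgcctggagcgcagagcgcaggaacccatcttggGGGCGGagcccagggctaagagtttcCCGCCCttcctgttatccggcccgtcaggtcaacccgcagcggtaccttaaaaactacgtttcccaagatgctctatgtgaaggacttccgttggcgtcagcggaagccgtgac

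*Psmc3* was listed in Brg1 fl/+ libraries 1 and 2 (30.5 and 31.4) and in all 4 Brg1 fl/fl libraries (18.2, 30.3, 16.7 and 14.6). Both listed Brg1 fl/+ heights lay above every Brg1 fl/fl height, with library 2 of Brg1 fl/fl just below them, and the listing in 2 against 4 libraries gave p = 0.429 (exact permutation test). *Psmc2* was listed in 6 libraries at 13.7 to 16.9 and shares its region with the start of *Dnajc2*. *Psmc1* was listed in 3 libraries at 8.24 to 8.86.

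The 11 non-ATPase subunits of the 19S particle recognise and remove ubiquitin and hold the lid together. 5 were listed in all libraries and 6 in some, and 0 of the 5 in the fit were called. *Psmd14*, the deubiquitinase that strips ubiquitin chains from substrates, had the lowest mean scaled height among members listed everywhere, with 23.3, 22.6, 22.3 and 21.3 in Brg1 fl/+ and 19.8, 16.0, 23.2 and 21.1 in Brg1 fl/fl. The groups overlapped and the log2 difference was -0.17 ± 0.20. Its promoter (chr2:61711444-61711743, plus strand), printed as the low end of the fully listed members, holds 3 GC boxes and 3 NF-Y matches, of which 2 overlap head to head just inside the transcript.
Psmd14: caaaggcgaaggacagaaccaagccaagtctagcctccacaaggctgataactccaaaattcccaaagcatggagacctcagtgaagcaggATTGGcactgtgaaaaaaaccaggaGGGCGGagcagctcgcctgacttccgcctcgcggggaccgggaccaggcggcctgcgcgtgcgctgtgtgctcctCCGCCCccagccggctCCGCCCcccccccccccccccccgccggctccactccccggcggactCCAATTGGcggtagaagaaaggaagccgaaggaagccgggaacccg

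*Psmd11* and *Psmd13*, lid subunits, had opposite signs. *Psmd11* reached 22.8, 31.4, 24.0 and 23.5 in Brg1 fl/+ and 28.1, 17.8, 22.2 and 19.2 in Brg1 fl/fl, a log2 difference of -0.23 ± 0.20 (adjusted p 0.499, limma). *Psmd13*, whose region also holds the start of *Sirt3*, reached 28.0, 25.8, 27.4 and 15.7 in Brg1 fl/+ and 27.3, 32.1, 28.7 and 23.8 in Brg1 fl/fl, a difference of 0.24 ± 0.20 (adjusted p 0.476, limma). Both pairs of groups overlapped. *Psmd3* (0.01) and *Psmd8* (0.11) were not called, and *Psmd3* was highest in Brg1 fl/+ library 3 at 48.0.

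*Psmd1*, the scaffold of the 19S base, was singled out after its values were seen, because it was absent from the fit only through Brg1 fl/fl library 2, the shortest list. The scaled heights were 11.4, 9.67, 17.1 and 12.3 in Brg1 fl/+ and 19.02, 23.2 and 22.0 in Brg1 fl/fl libraries 1, 3 and 4. All listed Brg1 fl/fl values were above all Brg1 fl/+ values. The lowest scaled height listed in Brg1 fl/fl library 2 was 10.7, so a low value there would be missed. Leaving that library out can therefore raise the difference. In a fit that took regions with at least 3 libraries per genotype and dropped missing values, the difference was 0.79 ± 0.25 (SE; adjusted p 0.0283, limma), and *Psma6* was again the promoter called lower. These were 1 higher and 1 lower of 27 members in that fit, beside 6.54% higher and 5.91% lower of its 6495 regions. The call of *Psmd1* was lost when the same fit used the background level, at -0.02 (adjusted p 0.933, limma), or the deposited fold, at 0.30 (adjusted p 0.333, limma), with medians of all regions of -0.85 and -0.22. Relative to those medians *Psmd1* was at 0.82 and 0.52, of which the first is nearly fixed by the main scaling, since background scaling also uses a library factor. The strongest summit of *Psmd1* lay between -31 and 197 bp from the start site among libraries, and that of *Psma6* between -25 and 21 bp. The other members of this group were *Psmd2* (7 libraries, 19.7 to 30.6), *Psmd7* (7 libraries, 12.8 to 20.7), *Psmd12* (6 libraries, 12.8 to 24.8), *Psmd6* (4 libraries, 9.67 to 14.1) and *Psmd4*. *Psmd4*, a ubiquitin receptor, was listed at 12.4 and 16.1 in Brg1 fl/+ libraries 1 and 2 and in 0 Brg1 fl/fl libraries (exact permutation test, p = 0.429).

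Of the activators and the inhibitor of the core, 2 of 5 were listed in all libraries and none was called. *Psme1* and *Psme2*, neighbours on chromosome 14, encode the partners of the interferon-inducible PA28 cap. *Psme2* was listed in all libraries at 34.8 to 60.0, from a region that also holds the start of *Rnf31*, whereas *Psme1* was listed in 4 libraries at 12.1 to 16.5. *Psme3*, which encodes a nuclear cap, reached 21.2, 21.0, 24.0 and 20.1 in Brg1 fl/+ and 18.2, 24.9, 27.8 and 32.0 in Brg1 fl/fl, with overlapping groups and a log2 difference of 0.23 ± 0.20 (adjusted p 0.501, limma). *Psme4* was listed in 6 libraries at 10.2 to 17.1. *Psmf1*, the inhibitor, was listed in 3 Brg1 fl/+ libraries (14.0, 7.25 and 8.95 in libraries 1, 2 and 4) and in 0 Brg1 fl/fl libraries (exact permutation test, p = 0.143). The heights in libraries 2 and 4 were near the edge of the lists, and that in library 1 was not.

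Of the 7 assembly chaperones, 3 were listed in all libraries, 4 in some and none was called. *Psmg4*, which helps to form the alpha ring, had the largest positive difference in the fit. Its scaled heights were 24.3, 28.2, 22.3 and 23.5 in Brg1 fl/+ and 25.6, 33.8, 28.7 and 28.4 in Brg1 fl/fl, with overlap at Brg1 fl/+ library 2 and a log2 difference of 0.24 ± 0.18 (adjusted p 0.413, limma). *Psmg1* (0.05) and *Psmd5* (-0.11) were not called, and *Psmd5*, which had the largest standard error of the 20 (0.20), ranged from 20.4 to 48.4. *Psmd9* was listed in 7 libraries at 12.9 to 24.0 and *Psmd10* in 3 at 14.0 to 19.3. *Psmg2* was listed in Brg1 fl/+ libraries 1 and 2 alone, at 7.77 and 5.64 (exact permutation test, p = 0.429), and *Psmg3* in Brg1 fl/+ library 1 alone, at 7.25. With *Psmb5*, these were the members with the lowest mean scaled heights.

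Measured against other promoters, the 20 proteasome promoters listed in all 8 libraries were of modest height. In all 8 libraries the median scaled height of the 20 fully listed promoters, 32.5 to 35.2, was below the median of the regions of protein-coding genes, 39.2 to 41.1. Over all members where listed, the median rank by q, counted from the top, was at 35.0% to 55.2% of a list. For protein-coding genes it was at 34.2% to 44.7%. The members ranked nearer the top in some libraries and further from it in others. The values that follow are again for the 20 fully listed promoters. The median peak was 446 bp wide, beside 518 bp. The median position of the summit was -43.5 bp from the start site, beside -54.5 bp for protein-coding genes listed in all 8 libraries, where negative positions are upstream. It lay within 100 bp of the start site for 15 of 20 genes (75.0%, beside 65.7%). 5 of the 20 regions (25.0%, beside 29.7%) also held the start of another protein-coding gene. These were *Psma2* with *Mrpl32*, *Psma4* with *AY074887*, *Psmc5* with *Ftsj3*, *Psmd13* with *Sirt3* and *Psme2* with *Rnf31*. A height there belongs to both genes.

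The letters of the promoters were compared as well, over the 43 members with a peak and the 10476 protein-coding genes with one. For these the start site used was that nearest the median summit. Shares over all 21938 genes are also given, but there the 5′ end of the gene stood in for genes without a peak. Those shares thus mix different start sites. The median GC content of the 300 bp was 58.7% for the members and 62.7% for the protein-coding genes. The ratio of observed to expected CpG was 0.790 and 0.821. The ETS motif was found in 17 of 43 members (39.5%), beside 21.7% of the protein-coding genes with a peak and 12.0% of all 21938. Among members listed in all 8 libraries it was found in 6 of 20 (30%), beside 23.0% of the protein-coding genes listed in all 8. Among members listed in 1 to 7 libraries it was found in 11 of 23 (47.8%). The GC box was found in 26 (60.5%, beside 72.2% and 47.1%) and the NF-Y box in 14 (32.6%, beside 39.8% and 38.9%). The antioxidant response element core was found in 7 (16.3%, beside 15.0% and 12.7%), *Psmb2*, *Psmb5*, *Psmb6*, *Psmc6*, *Psmd7*, *Psmd9* and *Psmd12*, of which *Psmc6* was listed in all 8 libraries. The E-box was found in 5 members (11.6%, beside 11.3% and 8.07%), the nuclear respiratory factor and YY1 motifs in 4 each (9.30%, beside 6.77% and 4.09% for the first and 4.12% and 2.12% for the second), the TATA box in 3 (6.98%, beside 5.0% and 11.9%), the CRE in 1 (2.33%, beside 4.18% and 2.62%) and E2F motifs in 0 (beside 1.95% and 1.14%). None of these shares was tested.

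**Figure D5:**
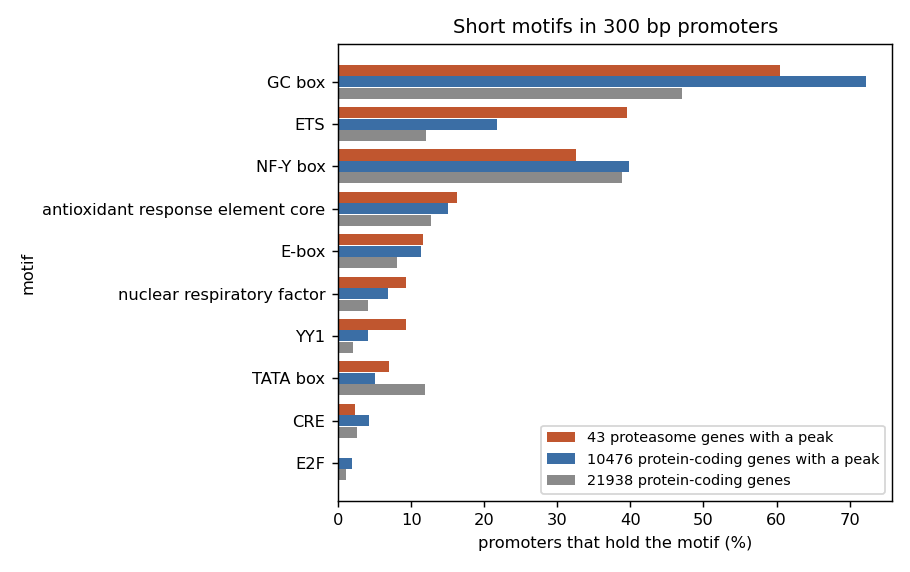
Share of promoters (x axis, percent) whose 300 bp hold each short motif (y axis), on either strand, for the 43 proteasome genes with a peak, the 10476 protein-coding genes with a peak and all 21938 protein-coding genes. For genes without a peak the 5′ end of the gene stands in for the start site. The ETS motif is at 39.5% in the proteasome genes and 21.7% in the protein-coding genes with a peak, and the antioxidant response element core is at 16.3% and 15.0%. Among genes listed in all 8 libraries, which are not drawn apart, the ETS motif is at 30% and 23.0%.

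Other genes of the pathway were examined in the same fit. Of 20 genes (the inducible subunits, proteins bound to the proteasome, its regulators, and ubiquitin genes and shuttles), 12 were in the fit, 0 were lower and 1 was higher. Over all 4560 regions of that fit, 4.74% were lower and 7.15% higher. The gene called was *Ubqln1*, which carries ubiquitinated proteins to the proteasome, with a log2 difference of 0.67 ± 0.20 (adjusted p 0.0241, limma). Relative to the median of all regions *Ubqln1* was at 0.66 under the main scaling, and so by construction under background scaling, and at 0.28 on the deposited fold. It was not called under background scaling or on the deposited fold (-0.15 and 0.11 before the median was subtracted). The regulators *Nfe2l1* (-0.03 ± 0.13) and *Nfe2l2* (0.03 ± 0.12) were not called. Of the inducible subunits, *Psmb9* was listed in all 8 libraries (0.13 ± 0.15), *Psmb8* in 2 and *Psmb10* in 1 Brg1 fl/+ library, and neither of the last in Brg1 fl/fl.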

How the data were processed

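ATAC-seq peak lists of 8 libraries were analysed, 4 per genotype. The 8 RNA-seq samples were not analysed here. The authors used Bowtie2 for alignment (mm10) and MACS2 for peak calling, 1 list per library with no pooling. Versions and options, and whether cut positions were shifted for the transposase, are not given in the sources used here. Per peak, the deposited lists hold the ratio (fold) of the summit over local background, −log10 p-value and −log10 q-value. These values depend on depth, and the lists hold no read counts.

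Fragments at the summit were recovered from the deposited fold and −log10 p, by solving both to within 0.002 of the deposited −log10 p with a background of at least 0.4 fragments. More than 99% of the peaks of each list were recovered. Log2 heights were scaled so that the median deviation from the mean of each region was equal between libraries, over promoter regions listed in all 8 libraries. Overlapping or touching peaks were joined into 16512 regions, and 4560 with a height in every library were fitted with limma 3.58.1 (eBayes with trend), adjusted over all of them at 0.05. Where several regions met a gene's windows, the highest stood for it. Single listings were compared by exact permutation (two-sided, 70 assignments). Each p printed from it is the smallest that the number of libraries listing the promoter allows. These tests could therefore not have called those promoters, and nothing is concluded from them. Depth and the number of libraries limit precision. Within Brg1 fl/fl, all 6 pairs of libraries differed by less than Poisson counting noise (mean squared deviation over expectation 0.800 to 0.862), as did 3 of 6 pairs in Brg1 fl/+ (1 and 2, 2 and 3, 3 and 4, at 0.756 to 0.883, against 1.00 to 1.19 for the others). Deviations of Brg1 fl/+ libraries 1 and 2 correlated at 0.038, and those of the other pairs of a genotype at -0.477 to -0.236. Whether libraries of a genotype are repeats of one sample cannot be told apart from these values. Each was counted once, and libraries 1 and 2 and libraries 3 and 4 were joined as an alternative. Replicate numbers did not pair the samples (correlations of deviations -0.0353 to -0.00171).

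Members and gene lists were chosen with earlier results of these data known, and single values of some listed genes that are no members are not reported here. Values in each library are given for members called (or, with fewer than 6 called, the 6 of largest difference), the 3 highest and 3 lowest, and those whose listing differed most between genotypes, where members tied for the last place were left out. The limma fit, and no other step, was tested on simulated Poisson counts without added spread between libraries. R 4.3.3 and Python 3.11.15 were used, the latter with matplotlib 3.10.9, pysam 0.24.0, scipy 1.17.1, pandas 2.3.3 and numpy 2.4.6. Alternatives were stricter q, lists of equal length, other windows, scalings and filters, joined or blocked libraries and each library left out.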

Additional observations from a re-analysis of the deposited data

Results flagged for a closer look

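In 47 groups of 4 heights, the highest or lowest library was compared with the others of its genotype, and 3 groups held a library that stood far from the rest; chance alone gives about 1 in 20. *Psma3* was lowest in Brg1 fl/+ library 4, at a scaled height of 28.0 against 34.3 to 34.7 in the other 3. *Psmd3* was lowest in Brg1 fl/fl library 2, at 26.7 against 40.5 to 41.2. *Psmd11* was highest in Brg1 fl/+ library 2, at 31.4 against 22.8 to 24.0. The causes were not tested.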

How the results depend on the processing

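Raising the −log10 q required of a peak to 10 took the 20 members listed in all libraries to 12, and leaving out each library gave 20 to 23. Members listed in more Brg1 fl/+ libraries fell from 13 to 5 with lists of equal length, as the share of protein-coding genes fell from 15.5% to 6.90%. Under background scaling 20 members and 91.0% of all regions were lower, with medians of -0.88 and -0.81, and on the deposited fold the medians were -0.25 and -0.17. Moving with these medians, *Psmg4*, *Psmd13* and *Psme3* turned to -0.58, -0.59 and -0.60 under the first and to -0.10, -0.13 and -0.079 under the second. Of all regions, 97.8% were negative under the first and 80.7% under the second. Relative to the median of all regions the differences of *Psmg4*, *Psmd13* and *Psme3* stayed positive, under the first by construction. Over all regions 216 were lower and 326 higher as reported, 4151 and 16 under background scaling, 148 and 5 on the deposited fold and 122 and 196 with joined libraries. With at least 3 libraries per genotype 1 of 27 members (*Psmd1*) was higher, beside 6.54% of all regions, and in 2 fits chosen after seeing the data its difference was -0.023 with background scaling and 0.30 on the deposited fold, with no call. With each library left out, 0 to 1 member was lower and 0 to 1 higher (*Psmd1*, without Brg1 fl/fl library 2). Beside these, 117 to 230 regions were lower and 188 to 379 higher, of the 4563 to 5160 regions in those fits. The median of the members ran from -0.075 to 0.030, positive only without Brg1 fl/fl library 2, when 23 members were in the fit. The *Psma6* difference stayed negative in all 18 alternatives and was called in 16. Fits without the trend, with blocked or joined libraries, or with at least 3 libraries per genotype keep its value of -0.50 by construction. Its sign could not change in those. The calls include that under background scaling, where 91.0% of all regions were lower. With the replicate block 1 member was lower and 0 higher, beside 202 lower and 284 higher of all 4560 regions. The *Psma6* difference was -0.50, and the block changed no call among the members. From 500 bp upstream to 100 bp downstream, 17 members (39.5%) held the antioxidant response element core and 24 (55.8%) the NF-Y box, beside 24.9% and 55.6% of protein-coding genes with a peak; neither share was tested. Depth limits what the shorter lists can show, so a member missing from Brg1 fl/+ library 3 or Brg1 fl/fl library 2 is not shown to be closed.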
